A study of Mus musculus with 12 samples.

Results

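The genes described here are 37 named enzymes and regulators of sphingolipid metabolism, out of 35675 genes to which the deposited transcripts could be summed. They were taken by gene symbol, all 37 were found, and they were read in 5 branches: 15 genes make or regulate ceramide, 3 make galactolipids, 5 make or cleave sphingomyelin and its ethanolamine analogue, 9 make gangliosides and 5 handle the phosphorylated forms of ceramide and sphingosine. RNA was measured in cells sorted from the spinal cords of mice aged 10 days. The controls carried CnpCre and the Rosa26-StopFlox-TdTomato reporter, RalA cKO mice carried in addition RalAflox/flox, and RalAB cKO mice carried RalAflox/flox together with RalBflox/flox. All 3 groups therefore shared CnpCre and tdTomato, and each group had 4 independent mice with 1 library per mouse. CnpCre is a recombinase expressed from Cnp regulatory sequence, which is active in the oligodendrocyte lineage and in Schwann cells, and the sort kept tdTomato-positive cells of large forward scatter.

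Sphingolipids are built on a sphingoid base that serine palmitoyltransferase makes from serine and palmitoyl-CoA, and ORMDL proteins hold this enzyme back when ceramide accumulates. Ceramide synthases attach a fatty acid of a chain length that differs between the isoforms, and the product is then turned into galactosylceramide and sulfatide, into sphingomyelin, or into glucosylceramide and the sialic-acid-bearing gangliosides. Myelin is rich in galactosylceramide and sulfatide, and oligodendrocytes carry high levels of the enzymes that make them. RalA and RalB, the deleted proteins, are Ras-related GTPases that act in vesicle trafficking.

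Libraries held 10.93 to 15.44 M estimated counts. Rala was at 35.5 to 59.3 CPM (counts scaled to library size, with trimmed mean of M values factors) in control, 33.1 to 42.7 in RalA cKO and 32.2 to 42.9 in RalAB cKO, and Ralb at 15.1 to 23.3, 13.4 to 17.5 and 14.0 to 17.2 CPM. Neither gene passed the test against control (adjusted p from edgeR of 0.236 for Rala in the single mutant, 0.0832 for Rala in the double mutant and 0.216 for Ralb there), so whole-gene counts did not by themselves show the deletions that the labels name. Summed TPM (a level corrected for transcript length and scaled to a fixed total) of 12 oligodendrocyte markers was 91096 to 100654 in control, 87742 to 95099 in RalA cKO and 90421 to 99671 in RalAB cKO, and every one of these markers was detected. The sum of 16 microglia markers was 320 to 834 TPM in control, 208 to 366 in RalA cKO and 1757 to 2789 in RalAB cKO, where 15 of 16 were higher than in control. The sum of 8 oligodendrocyte precursor markers was 1127 to 1771, 846 to 1168 and 743 to 1131 TPM, and 7 of 8 were lower in RalAB cKO than in control. Of 10 astrocyte markers 7 were lower in RalAB cKO, with sums of 271 to 470, 234 to 336 and 196 to 233 TPM, and of 9 tested neuron markers 3 were lower, with control 3 at 146 TPM against 58.9 to 70.3 in the other controls. Of all 13456 tested genes 9.39% were higher and 9.02% lower in RalAB cKO than in control. No marker of these lists was at 0 in every library. Summed TPM of 4 Y-linked genes was 24.3, 7.73, 0.261 and 0.152 in control mice 1 to 4. It was 26.2, 4.20, 60.2 and 28.8 in RalA cKO and 0.147, 0.0901, 26.9 and 29.8 in RalAB cKO. These levels were not balanced between the groups, so the Y-linked covariate used below is partly tied to genotype.

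In control cells the genes that lead to galactolipids stood far above the rest of the set. Cers2, the ceramide synthase that uses very long acyl chains, was at 1115, 1278, 978 and 1249 TPM in control mice 1 to 4. Ugt8a, the galactosyltransferase that makes galactosylceramide, was at 1020 ± 232 TPM (SD, n = 4), Fa2h, which hydroxylates the fatty acid, at 1004 ± 78.8 and Gal3st1, which adds the sulfate of sulfatide, at 884 ± 148. The ranges of these 4 genes overlapped. Within each control library Cers2 lay above Fa2h and Gal3st1, but Ugt8a was above Cers2 in control 3 (996 against 978 TPM). The order of Ugt8a, Fa2h and Gal3st1 differed between the mice. Degs1, the desaturase that turns dihydroceramide into ceramide, came next at 318 to 428 TPM, below the lowest value of Gal3st1 (739 TPM) and above the highest of the gene that followed. That gene, Cers1, was at 96.0 to 117 TPM and its range overlapped those of Sptlc2 and St8sia3. At the low end lay Cers6 at 0.851 ± 0.591 TPM, St8sia1 at 1.37 ± 0.388 and Smpd3 at 1.60 ± 0.492, and neighbours in this part of the order overlapped. Sptssb, Degs2 and Sphk1 had 3.00, 3.00 and 45.0 counts over all 12 libraries together and were too low to test, which left 34 genes.

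**Figure D1:**
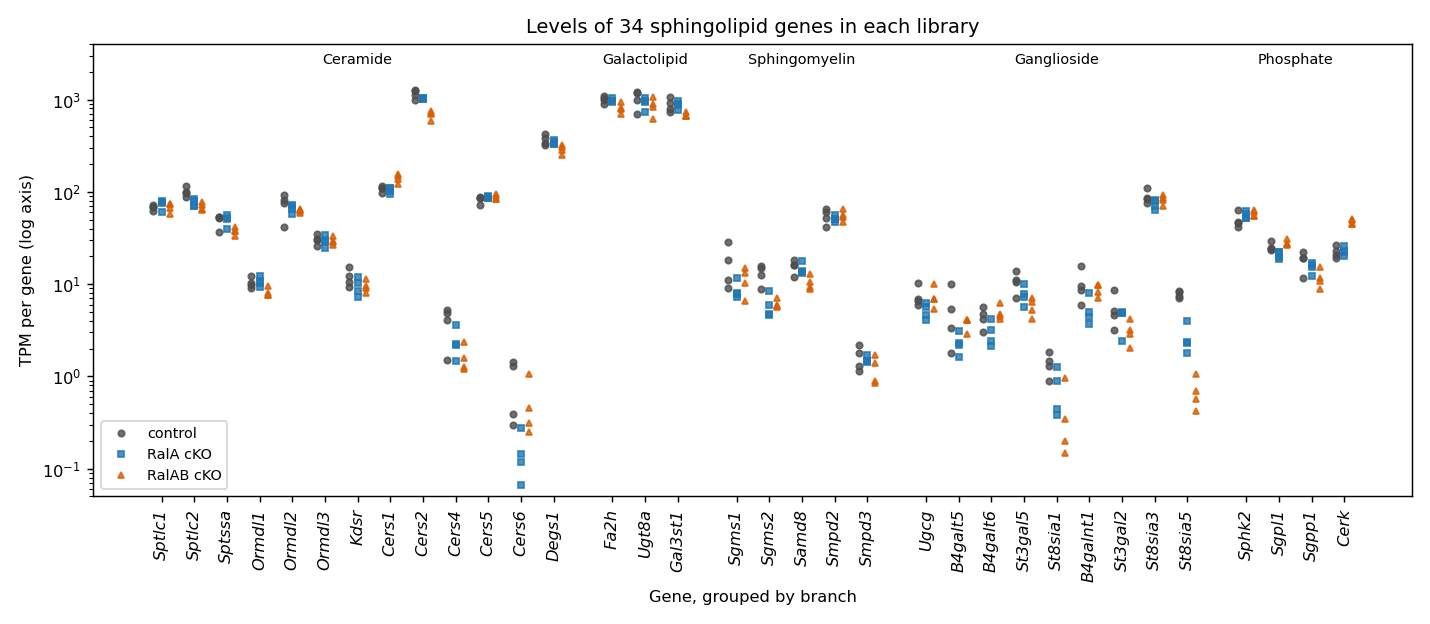
Each point is 1 library and gives the TPM of 1 gene on a log axis, with genes grouped by branch, for control (circles), RalA cKO (squares) and RalAB cKO (triangles). Cers2 and the 3 galactolipid genes lie highest in control, between 699.7 and 1278 TPM, and the RalAB cKO points of St8sia5 lie below all of its control points.

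Across the 34 tested genes, 15 differed in at least 1 of the 3 comparisons. In RalA cKO against control 1 gene was higher and 2 were lower, that is 8.82% of the genes tested here, beside 2.78% of all 13456 tested genes (1.71% higher and 1.07% lower). Against control, RalAB cKO had 4 genes higher and 6 lower, 29.4% beside 18.4% of all genes (9.39% higher and 9.02% lower). Between the mutants 3 were higher and 5 lower in RalAB cKO, 23.5% beside 11.5% (7.03% and 4.50%). The median log2 difference of the 34 genes was 0.05, -0.16 and -0.15 in these comparisons, beside -0.02, -0.01 and -0.03 for all tested genes. Genes whose 4 CPM values in the mutant group all lay outside the range of the other group numbered 4 (11.8%), 7 (20.6%) and 12 (35.3%), beside 11.4%, 19.2% and 17.3% of all genes. The comparisons share their control or RalA cKO mice and are not independent of one another. Without control 1 and RalAB cKO 1, which earlier results of these data had set apart, every call of the set was kept except that of Degs1 between the mutants. Log2 differences below carry ± their standard error (4 mice in each group), and adjusted p-values come from edgeR's quasi-likelihood test with Benjamini-Hochberg adjustment over all 13456 genes.

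**Figure D2:**
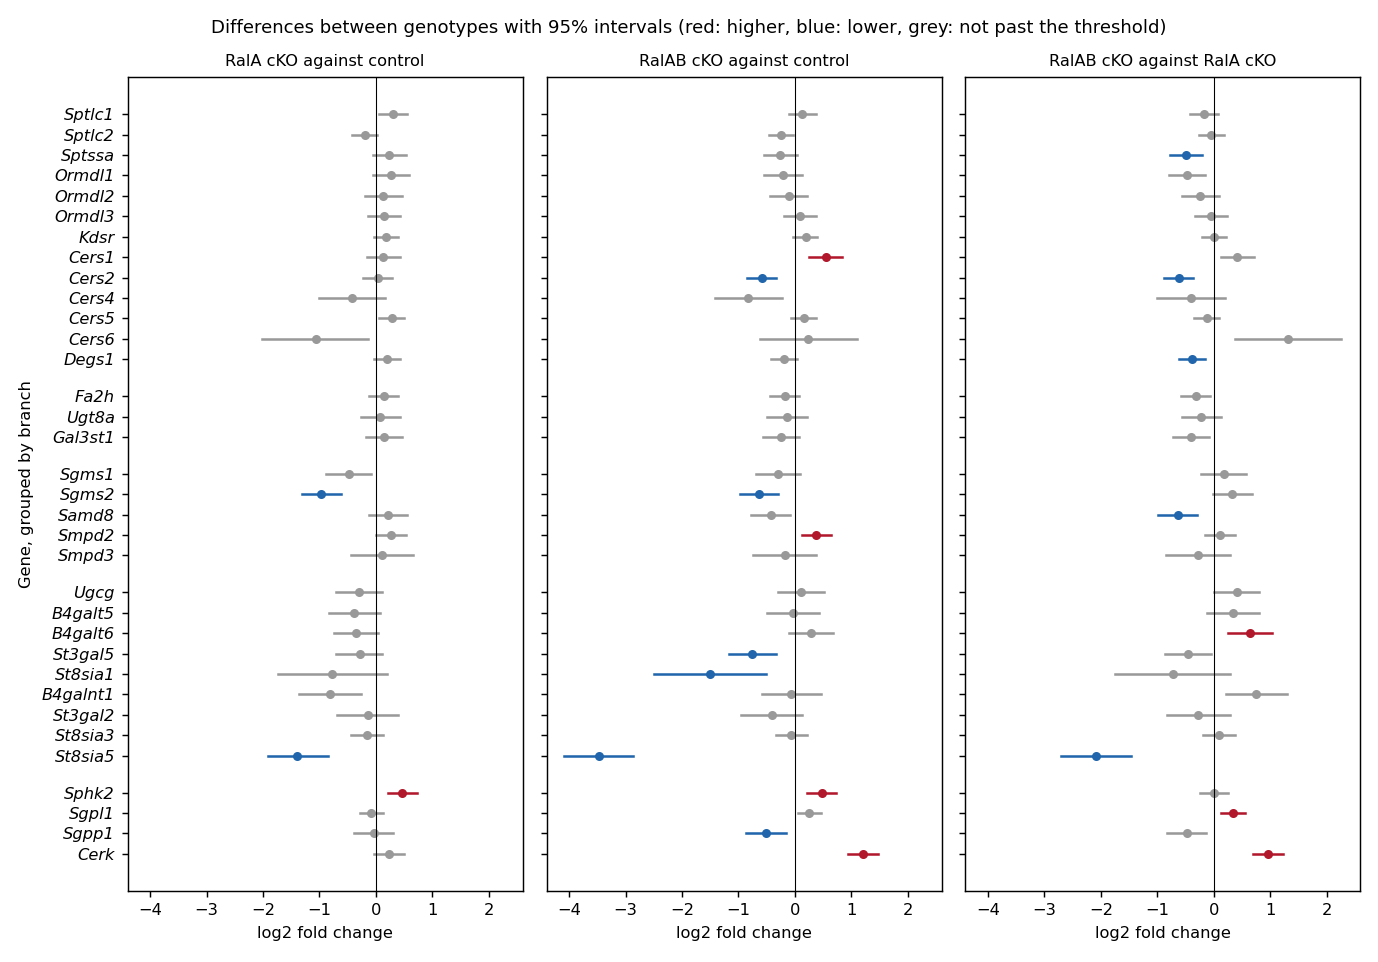
Points are log2 fold changes of 34 genes in the 3 comparisons and lines are their 95% intervals. Red and blue mark genes that passed an adjusted p of 0.05, and the interval of St8sia5 in RalAB cKO against control, from -4.09 to -2.86, lies below those of the other genes.

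The sequences before the transcription starts of 4 genes that differed between RalAB cKO and control are shown because these genes, 1 kinase, 2 ceramide synthases and 1 sphingomyelin synthase, moved in both directions: Cerk and Cers1 were higher, Cers2 and Sgms2 lower. Within the set they have the smallest p-values of that comparison after St8sia5, whose sequence is not shown. The sequences come from RefSeq's GRCm38.p6 table, run 5′ to 3′ on the gene's strand and stop before any annotated exon of the gene. Capitals mark a CCAAT box (CCAAT), an E-box (CACGTG), a GC box (GGGCGG), a SOX-type word (ACAAAG) or a MYRF-type word (CTGGNAC), searched on both strands. They cover chr15:86186142-86186391 (minus strand) for Cerk, chr3:95314940-95315083 (plus) for Cers2, chr8:70315525-70315774 (plus) for Cers1 and chr3:131344941-131345158 (minus) for Sgms2. 
Cerk: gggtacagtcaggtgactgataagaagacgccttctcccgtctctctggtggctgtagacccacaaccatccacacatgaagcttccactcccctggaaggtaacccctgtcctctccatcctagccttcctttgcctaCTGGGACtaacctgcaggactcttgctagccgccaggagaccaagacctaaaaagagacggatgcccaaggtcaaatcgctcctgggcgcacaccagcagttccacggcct
Cers2: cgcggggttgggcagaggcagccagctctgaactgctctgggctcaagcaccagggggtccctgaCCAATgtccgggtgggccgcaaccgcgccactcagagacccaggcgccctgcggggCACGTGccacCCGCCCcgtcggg
Cers1: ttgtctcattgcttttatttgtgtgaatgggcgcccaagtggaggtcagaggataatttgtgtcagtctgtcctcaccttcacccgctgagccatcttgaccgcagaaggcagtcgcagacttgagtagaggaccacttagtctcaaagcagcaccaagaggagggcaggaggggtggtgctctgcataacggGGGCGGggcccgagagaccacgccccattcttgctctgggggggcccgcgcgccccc
Sgms2: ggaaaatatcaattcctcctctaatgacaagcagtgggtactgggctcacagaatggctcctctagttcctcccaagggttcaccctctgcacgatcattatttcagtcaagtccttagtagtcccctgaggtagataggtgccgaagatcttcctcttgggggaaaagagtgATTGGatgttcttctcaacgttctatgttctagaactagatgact
The Cers2 stretch is 72.9% G or C and that of Sgms2 45.9%, with Cerk at 56.4% and Cers1 at 59.2%. Cers2 held an E-box, a GC box and a CCAAT box, Cers1 a GC box, Sgms2 a CCAAT box and Cerk a MYRF-type word, and no motif overlapped another. Among all 32851 RefSeq windows of 250 bases, an E-box occurred in 6.0%, a GC box in 32.7%, a CCAAT box in 33.8%, the SOX-type word in 16.5% and the MYRF-type word in 16.1%. For 30 of the 37 genes 47 windows were found, with an E-box in 14.9%, a GC box in 59.6%, a CCAAT box in 38.3%, the SOX-type word in 6.4% and the MYRF-type word in 14.9%. A sterol response word (TCACNCCAC) was in 1.1% of all windows and in 0 of the 47. These matches are a description of letters and not of binding.

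Of the 13 tested ceramide genes 1 was higher and 1 lower in RalAB cKO than in control, and 3 were lower in RalAB cKO than in RalA cKO. These are 15.4% of the branch, beside 18.4% of all genes, and 23.1%, beside 11.5%. In RalA cKO against control 0 passed edgeR's test, 3 had an unadjusted p under 0.05, and DESeq2 and limma-voom also called 0. Serine palmitoyltransferase joins the subunits Sptlc1 and Sptlc2 with a small activating subunit, Sptssa or Sptssb. Sptssa was at 29.1, 40.1, 37.4 and 40.3 CPM in control, 33.5, 45.8, 41.5 and 51.9 in RalA cKO and 29.6, 31.2, 33.0 and 29.1 in RalAB cKO. Each RalAB cKO value lay below each RalA cKO value, while RalAB cKO and control overlapped. Between the mutants Sptssa was lower by -0.49 ± 0.14 (adjusted p = 0.0263), and against control it was at -0.26 ± 0.14 (adjusted p = 0.211). That call was lost without RalA cKO 2, RalA cKO 4, RalAB cKO 2 or RalAB cKO 4 (-0.50 to -0.39) and with transcript length offsets (adjusted p = 0.0519). Sptlc2, among the most abundant genes of the branch without a call, was at 92.3 to 119 CPM in control, 82.2 to 96.6 in RalA cKO and 79.3 to 95.2 in RalAB cKO. In RalAB cKO against control it was at -0.24 ± 0.10 (adjusted p = 0.113). Only 18.8% of its TPM in control fell on the protein-coding transcript, so its whole-gene TPM is mostly not that of the coding mRNA. By counts, on which CPM and the test rest, that transcript held 1053 of 1445 in control on average. The TPM ratio of Sptlc2 to Sptlc1 was 1.28 to 1.61 in control, 0.890 to 1.15 in RalA cKO and 0.867 to 1.13 in RalAB cKO, and is given as a description. Sptlc1 was at 102 ± 10.2, 126 ± 18.5 and 112 ± 8.85 CPM in the 3 groups, with no call. The brakes Ormdl1, Ormdl2 and Ormdl3 had no call in any comparison, with log2 differences of -0.47 to 0.26. Ormdl1 came nearest between the mutants (-0.47 ± 0.15, adjusted p = 0.0595), and its 4 RalAB cKO values of 9.72 to 10.9 CPM lay below its 4 RalA cKO values of 12.3 to 17.8. Ormdl2 made up 51.7% to 67.2% of ORMDL TPM over all 12 libraries. By CPM it averaged 32.0 in control, against 37.2 for Ormdl3. Ormdl2 shares exons with Dnajc14 on the other strand (63.3 CPM), so its level is uncertain. Kdsr, which reduces the first ketone intermediate, was at 28.9 ± 1.75, 32.7 ± 2.93 and 32.9 ± 0.308 CPM with no call.

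Cers2 was lower in RalAB cKO. It was at 1274, 1392, 1012 and 1425 CPM in control mice, 1253, 1363, 1206 and 1383 in RalA cKO mice and 746, 924, 930 and 784 in RalAB cKO mice. All 4 RalAB cKO values lay below the lowest value of either other group, and RalA cKO overlapped control throughout. The difference was -0.59 ± 0.12 against control (adjusted p = 0.00342) and -0.62 ± 0.12 against RalA cKO (adjusted p = 0.00259), a 1.51-fold and a 1.54-fold lower level. In RalA cKO against control it was 0.03, with a 95% interval of -0.23 to 0.29. In bulk RNA from sorted cells, fewer cells of a type and less RNA per cell cannot be told apart. The microglia sums given above were higher and the astrocyte sums lower in the same RalAB cKO libraries. Against control 7 of 8 precursor markers and 5 of 12 oligodendrocyte markers were lower there too, beside 9.02% of all genes. Of these 12 markers 6 had values above 0, such as Mbp at 0.35 and Sox10 at 0.27, none of them past the test, and the median was -0.17. Their part in the Cers2 result was not tested.

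Cers1, a ceramide synthase of shorter chains known for its role in neurons, moved the other way. Its values were 174, 143, 140 and 136 CPM in control, 170, 161, 136 and 182 in RalA cKO and 161, 224, 228 and 254 in RalAB cKO. Of the RalAB cKO libraries 3 lay above all controls and RalAB cKO 1 lay within their range. Cers1 was higher in RalAB cKO than in control by 0.55 ± 0.14 (adjusted p = 0.0108), and at 0.42 ± 0.14 against RalA cKO (adjusted p = 0.0605), which passed in 6 of 10 alternative analyses. The gene shares exons with Gdf1 on its own strand (15.2 CPM) and with Upf1 on the other strand (99.9 CPM), so its counts are uncertain to that extent. A second coding transcript of Cers1, ENSMUST00000165819, was at 8.61 ± 10.9 TPM in control mice, 26.0 ± 20.6 in RalA cKO mice and 30.2 ± 22.5 in RalAB cKO mice, with ranges that overlapped.

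The make-up of the ceramide synthases differed accordingly between the genotypes. Cers2 made up 84.1%, 86.5%, 83.8% and 87.1% of the TPM of the 5 synthases in control, 83.5%, 84.7%, 84.8% and 83.4% in RalA cKO and 76.0%, 76.2%, 75.3% and 70.8% in RalAB cKO. Cers1 made up 6.70% to 9.43%, 7.79% to 9.11% and 13.4% to 18.9%, and Cers5 5.82% to 6.67%, 6.97% to 7.41% and 8.48% to 10.3%. The TPM of Cers2 was thus 10.8 ± 1.91 times that of Cers1 in control, 9.92 ± 0.812 times in RalA cKO and 4.88 ± 0.811 times in RalAB cKO. All of these shares and ratios separated RalAB cKO from the other groups without overlap, and Cers2 stayed the most abundant synthase in every library. Cers5 itself had no call (85.8, 104 and 95.5 CPM on average). Cers4 and Cers6 were low, at 3.99 ± 1.27 and 1.43 ± 0.591 CPM in control. Cers4 came near the threshold in RalAB cKO (-0.83 ± 0.28, adjusted p = 0.0503), and 23.5% of its TPM in control was on coding transcripts. Cers6 was at 1.32 ± 0.44 between the mutants (adjusted p = 0.0668), from 0.674 to 1.70 CPM on average.

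**Figure D3:**
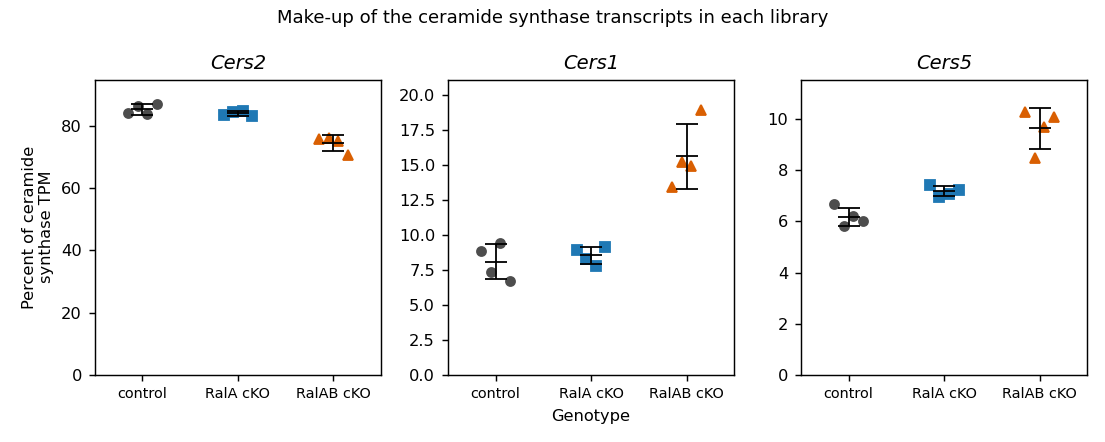
Each point is the percent of the summed TPM of 5 ceramide synthases that 1 gene held in 1 library, with points from mouse 1 to mouse 4 from left and bars giving the mean and SD of each genotype. Cers2 lies between 70.8% and 76.2% in RalAB cKO and at or above 83.4% in every other library.

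Degs1, at the end of ceramide synthesis, was at 352, 403, 322 and 404 CPM in control, 387, 428, 398 and 483 in RalA cKO and 300, 351, 339 and 309 in RalAB cKO. The RalAB cKO values lay below all RalA cKO values and overlapped control. Degs1 was lower in RalAB cKO than in RalA cKO by -0.38 ± 0.11 (adjusted p = 0.0272) and at -0.19 ± 0.11 against control (adjusted p = 0.241). The call was lost without RalA cKO 2, RalA cKO 4, RalAB cKO 1, RalAB cKO 3 or RalAB cKO 4 (-0.41 to -0.32), without control 1 and RalAB cKO 1 together, with transcript length offsets and with the Y-linked covariate. Summed over the branch, ceramide genes held 1874 to 2274 TPM in control, 1834 to 1914 in RalA cKO and 1347 to 1579 in RalAB cKO, a log2 difference of -0.47 from control in RalAB cKO, which became -0.16 without Cers2.

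The galactolipid genes, the most abundant branch, did not pass the test in any comparison. Ugt8a was at 1685, 2601, 2070 and 2802 CPM in control, 1872, 2621, 2509 and 2650 in RalA cKO and 2313, 2196, 2154 and 1632 in RalAB cKO. Control 1 and RalAB cKO 4 were the lowest libraries, and the groups overlapped. Fa2h was at 1387, 1284, 1093 and 1462, then 1397, 1478, 1276 and 1618, then 1017, 1332, 1185 and 1072 CPM, with RalAB cKO 2 inside the range of both other groups. Gal3st1 was at 971, 644, 588 and 812, then 860, 949, 678 and 865, then 535, 685, 659 and 658 CPM. Against control, RalAB cKO was at -0.14 (95% interval -0.49 to 0.21) for Ugt8a, -0.18 (-0.44 to 0.08) for Fa2h and -0.25 (-0.57 to 0.07) for Gal3st1, and all 3 intervals include 0. RalA cKO against control gave 0.08 (-0.27 to 0.43), 0.14 (-0.12 to 0.40) and 0.15 (-0.17 to 0.47). Between the mutants Fa2h was at -0.32 ± 0.12 (adjusted p = 0.107) and Gal3st1 at -0.40 ± 0.15 (adjusted p = 0.110), with unadjusted p of 0.0171 and 0.0178, and each passed in 2 of 10 alternative analyses. Against control 0 of the 3 genes had an unadjusted p under 0.05 in edgeR's test in either mutant, and DESeq2 and limma-voom also called 0. With library totals alone edgeR called Fa2h lower in RalAB cKO than in control (adjusted p = 0.0434), 1 of the 10 alternatives. Their summed level was 2636 to 3218 TPM in control, 2579 to 2920 in RalA cKO and 1997 to 2578 in RalAB cKO, where all 4 sums lay below all 4 controls, with no test made of the sum. Fa2h, Ugt8a and Gal3st1 held 33.9% to 36.0%, 25.3% to 39.3% and 26.5% to 38.7% of this sum in control, and their mean shares in RalAB cKO were 34.6%, 36.1% and 29.3%.

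Sphingomyelin is made from ceramide by Sgms1 and Sgms2. Sgms2, the synthase known from the plasma membrane, was at 30.5, 51.0, 27.1 and 36.0 CPM in control, 17.7, 18, 17.6 and 20.6 in RalA cKO and 24.3, 23.4, 23.5 and 21.4 in RalAB cKO. Every mutant library lay below every control, and the RalA cKO values lay below the RalAB cKO values. It was lower by -0.97 ± 0.16 in RalA cKO (1.95-fold, adjusted p = 0.00581) and by -0.64 ± 0.16 in RalAB cKO (1.56-fold, adjusted p = 0.0116), and the direct difference between the mutants was 0.33 ± 0.16 (adjusted p = 0.254), or -0.01 with transcript length offsets. Both calls against control held when any 1 library was left out, with -1.09 to -0.75 and -0.77 to -0.43, and in the 10 other alternatives. Sgms1 was at 14.0 ± 4.00, 10.1 ± 1.13 and 11.4 ± 1.42 CPM and had no call, at -0.48 ± 0.19 in RalA cKO (adjusted p = 0.148). Control 3, at 19.8 CPM, was its highest library, and 27.5% of Sgms1 TPM in control was on coding transcripts. Median log2 differences in RalA cKO and RalAB cKO were -0.45 and -1.23 for precursor markers, -0.18 and -1.03 for astrocyte markers, -1.19 and -1.40 for neuron markers and -0.76 and 1.92 for microglia markers, and their part in the Sgms2 result was not tested.

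Samd8 makes the ethanolamine analogue of sphingomyelin. Its values were 36.0, 57.8, 54.3 and 55.7 CPM in control, 45.0, 58.5, 67.3 and 64.6 in RalA cKO and 43.6, 31.0, 40.6 and 36.3 in RalAB cKO. All RalAB cKO values were below all RalA cKO values, and control 1 fell among them. Samd8 was lower between the mutants by -0.64 ± 0.16 (adjusted p = 0.0152), a call lost without RalA cKO 4 (-0.59) or RalAB cKO 2 (-0.55), and it was at -0.43 ± 0.16 against control (adjusted p = 0.0768). Smpd2 and Smpd3 are neutral sphingomyelinases, which split sphingomyelin back to ceramide. Smpd2 was at 40.1, 33.8, 39.4 and 34.6 CPM in control, 50.3, 44.2, 39.4 and 44.5 in RalA cKO and 38.2, 47.1, 53.0 and 55.1 in RalAB cKO, with RalAB cKO 1 inside the control range. It was higher in RalAB cKO than in control by 0.38 ± 0.12 (adjusted p = 0.0404). That call was lost without control 2, control 3, control 4, RalA cKO 2, RalA cKO 4, RalAB cKO 2, RalAB cKO 3 or RalAB cKO 4 (0.32 to 0.40) and in 6 of 10 alternatives, with transcript length offsets the farthest (0.16, adjusted p = 0.576). Smpd2 also shares exons with Mical1 on the other strand (25.2 CPM). Smpd3 was at 2.66 to 5.20 CPM over all 12 libraries with no call.

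The ganglioside branch held the steepest difference of the set, in St8sia5. This sialyltransferase adds a sialic acid to complex gangliosides. It was at 8.78, 9.20, 8.25 and 10.5 CPM in control, 5.18, 3.18, 2.97 and 2.70 in RalA cKO and 1.19, 0.817, 0.719 and 0.532 in RalAB cKO. The 3 groups did not overlap, and each control value was above each RalA cKO value, which in turn was above each RalAB cKO value. St8sia5 was lower by -1.39 ± 0.25 in RalA cKO (2.61-fold, adjusted p = 0.00939), by -3.47 ± 0.29 in RalAB cKO (11.1-fold, adjusted p = 7.99e-06) and by -2.09 ± 0.30 in RalAB cKO against RalA cKO (4.25-fold, adjusted p = 0.000168). These values rest on 115 to 134 estimated counts per library in control and 7 to 16.0 in RalAB cKO. The RalA cKO call was lost without RalA cKO 4 (-1.28) and when Y-linked expression entered as a covariate (adjusted p = 0.0848), and both RalAB cKO calls held in every alternative and with each library left out. Precursor markers moved in the same direction, with 7 of 8 lower in RalAB cKO than in control and 1 of 8 in RalA cKO (beside 9.02% and 1.07% of all genes). The log2 differences of single markers in RalAB cKO against control were -1.99 to -0.18. The marker sums overlapped between control and RalAB cKO (1127 to 1771 against 743 to 1131 TPM). The marker of highest CPM, Gpr17, was the 1 without a call there (-0.18, on average 2590 CPM in control and 2285 in RalAB cKO). The CPM ranges of the other 7 did not overlap (87.5% of the list, beside 19.2% of all genes). Neuron marker sums were 58.9 to 146, 37.7 to 71.9 and 23.6 to 40.3 TPM. Whether cells carrying these markers hold the St8sia5 transcripts was not tested.

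St3gal5, which makes the first ganglioside GM3 from lactosylceramide, was at 9.76, 13.9, 14.4 and 13.9 CPM in control, 14.4, 9.46, 9.69 and 8.83 in RalA cKO and 8.54, 7.35, 8.63 and 6.24 in RalAB cKO. All 4 RalAB cKO values were below both other groups. It was lower than control by -0.75 ± 0.19 (1.69-fold, adjusted p = 0.0128), a call lost without RalAB cKO 4 (-0.66), and was at -0.46 ± 0.20 against RalA cKO (adjusted p = 0.163). St8sia1, which makes GD3 from GM3 and is known from oligodendrocyte precursors, was at 5.70, 4.68, 9.54 and 4.37 CPM in control, 4.20, 2.58, 4.88 and 2.63 in RalA cKO and 5.14, 1.23, 0.960 and 1.23 in RalAB cKO. Of the RalAB cKO libraries 3 lay below all others and RalAB cKO 1 lay within the control range. The difference from control was -1.51 ± 0.47 (adjusted p = 0.0366) and became -2.41 without RalAB cKO 1. It was lost without control 1, control 2, control 3, RalAB cKO 2, RalAB cKO 3 or RalAB cKO 4 (-1.60 to -1.21), with library totals alone, with no count filter and with the 2 groups compared alone. RalAB cKO 1 also had the highest precursor sum of its group (1131 TPM, against 743 to 993). Its sums were highest too for neuron (40.3, against 23.6 to 25.2) and astrocyte markers (233, against 196 to 214). The same held for Schwann cell markers (69.4 TPM) and pericyte and fibroblast markers (5.61 TPM). Its microglia and oligodendrocyte sums were the lowest of the group (1757 and 90421 TPM), and its endothelial sum was neither (25.9 TPM). The part of these cells in the St8sia1 values was not tested.

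B4galt6, which with B4galt5 makes lactosylceramide, was at 11.4, 16.1, 18.3 and 15.1 CPM in control, 8.58, 13.3, 15.5 and 10.5 in RalA cKO and 20.8, 17.1, 17.3 and 19.2 in RalAB cKO. The RalAB cKO values lay above all RalA cKO values and overlapped control. B4galt6 was higher in RalAB cKO than in RalA cKO by 0.64 ± 0.19 (adjusted p = 0.0334), and at 0.29 ± 0.18 against control (adjusted p = 0.306). The call between the mutants was lost without RalA cKO 1, RalA cKO 2, RalA cKO 4 or any 1 of the 4 RalAB cKO libraries (0.51 to 0.69), and in 3 of 10 alternatives. St8sia3, the most abundant gene of the branch, was at 118 ± 21.1, 106 ± 10.2 and 113 ± 15.4 CPM with no call, and 13.8% of its TPM in control was on coding transcripts. By counts, its coding transcripts held 473 and 181 of 1598 in control on average. B4galnt1, which makes GM2 and GD2, had no call but came near: it was at 7.46 to 17.9 CPM in control, 5.05 to 10.1 in RalA cKO and 10.3 to 12.9 in RalAB cKO, with -0.81 ± 0.26 in RalA cKO against control (adjusted p = 0.0859) and 0.75 ± 0.26 between the mutants (adjusted p = 0.0736). Ugcg, which makes glucosylceramide, was at 17.7 ± 4.88, 14.3 ± 2.37 and 19.1 ± 3.17 CPM with no call, and the TPM ratio of Ugt8a to Ugcg was 113 to 181, 168 to 206 and 109 to 128. B4galt5 and St3gal2 had no call either, with log2 differences of -0.41 to 0.34. In RalA cKO against control all 9 ganglioside genes had values below 0, also under both other scalings but not with the Y-linked covariate (St3gal2 at 0.11), with a median of -0.35 beside -0.02 for all genes, but 1 of the 9 passed the test (11.1%, beside 2.78% of all genes). In RalAB cKO 3 of 9 passed, all lower (33.3%, beside 18.4% of all genes called and 9.02% called lower), with a median of -0.06. A uniform sign in RalA cKO against control was not particular to this branch. None of the 16 microglia, 8 precursor, 9 tested neuron and 8 endothelial markers was above 0 there (medians -0.76, -0.45, -1.19 and -1.06). Of 10 astrocyte markers 3 were above 0, and of 12 oligodendrocyte markers 10. The part of these cells in the ganglioside values was not tested.

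Among the genes of the phosphorylated lipids, Cerk was the clearest. Ceramide kinase turns ceramide into ceramide-1-phosphate. Cerk was at 59.4, 43.6, 60.1 and 50.3 CPM in control, 57.6, 58.4, 58.6 and 77.0 in RalA cKO and 111, 121, 132 and 129 in RalAB cKO. The lowest RalAB cKO value was above the highest of either other group. Cerk was higher by 1.21 ± 0.13 against control (2.31-fold, adjusted p = 2.02e-05) and by 0.97 ± 0.13 against RalA cKO (1.96-fold, adjusted p = 7.30e-05), and both calls held in each alternative and with each library left out. In RalA cKO it was at 0.24 ± 0.13 (adjusted p = 0.269). In control 54.4% of Cerk TPM was on coding transcripts and in RalAB cKO 57.7%, and the main coding transcript, ENSMUST00000044332, went from 10.1 ± 1.96 to 22.4 ± 3.79 TPM while a retained-intron transcript went from 10.2 ± 4.36 to 20 ± 3.57. The microglia sum also separated RalAB cKO from the other groups, with 1757 to 2789 TPM against 320 to 834 in control and 208 to 366 in RalA cKO. In RalA cKO against control the median log2 difference of the microglia markers was -0.76, beside 0.24 for Cerk. The share of Cerk that comes from microglia was not tested.

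**Figure D4:**
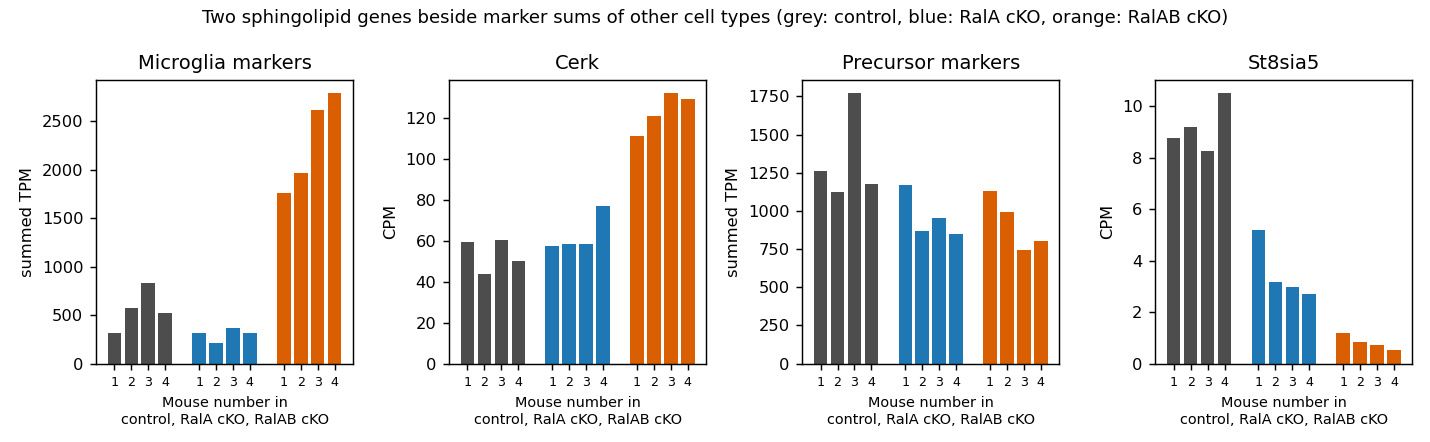
Bars give, for each of the 12 libraries, the summed TPM of 16 microglia markers, the CPM of Cerk, the summed TPM of 8 oligodendrocyte precursor markers and the CPM of St8sia5, in mice 1 to 4 of control, RalA cKO and RalAB cKO. Cerk and the microglia sum are higher in every RalAB cKO library than in any other, and St8sia5 steps down over the 3 genotypes. The precursor sums, in which Gpr17 is the marker of highest CPM, overlap.

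Sphk2, a sphingosine kinase that makes sphingosine-1-phosphate, was at 77.9, 59.8, 65.3 and 75.3 CPM in control, 89.4, 94.2, 90.1 and 111 in RalA cKO and 78.9, 105, 96.5 and 106 in RalAB cKO. Every mutant library lay above every control, RalAB cKO 1 only narrowly. Sphk2 was higher than in control by 0.47 ± 0.12 in RalA cKO mice (adjusted p = 0.0497) and by 0.48 ± 0.12 in RalAB cKO mice (adjusted p = 0.0118), and the mutants were at 0.01 from each other (95% interval -0.24 to 0.26). The RalA cKO call was at the threshold: it was kept when control 1 or RalAB cKO 1 was left out and lost without any other library (0.39 to 0.51), and 5 of 10 alternatives ended it (adjusted p up to 0.20). The RalAB cKO call ended with transcript length offsets alone (adjusted p = 0.0713). Sphk2 shares exons with Rpl18 on the other strand, which was at 437 CPM, and the use of strand in counting is not stated, so its level is uncertain.

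Sphingosine-1-phosphate is removed by the lyase Sgpl1 and the phosphatase Sgpp1. Sgpl1 was at 60.0, 56.4, 68.4 and 63.0 CPM in control, 63.5, 54.4, 55.6 and 60.7 in RalA cKO and 67.4, 72.2, 79.4 and 77.3 in RalAB cKO, where each value was above all RalA cKO values. It was higher between the mutants by 0.34 ± 0.10 (adjusted p = 0.0317) and at 0.26 ± 0.10 against control (adjusted p = 0.0761). The call between the mutants was lost without RalA cKO 2, RalA cKO 3, RalA cKO 4, RalAB cKO 2, RalAB cKO 3 or RalAB cKO 4 (0.30 to 0.36), with no count filter and with mouse number as a block (adjusted p up to 0.0969). Sgpp1 was at 24.0, 42.3, 34.9 and 38.1 CPM in control, 27.0, 36.8, 35.0 and 37.1 in RalA cKO and 28.2, 24.7, 24.6 and 19.9 in RalAB cKO. Control 1 lay among the RalAB cKO values. Sgpp1 was lower than control by -0.51 ± 0.17 (adjusted p = 0.0400), a call lost without control 2, control 3, control 4, RalA cKO 2, RalAB cKO 2, RalAB cKO 3 or RalAB cKO 4 (-0.53 to -0.40) and in 3 of 10 alternatives, and at -0.48 ± 0.17 against RalA cKO (adjusted p = 0.0758). Sphk1, the other sphingosine kinase, was at 0 to 1.05 CPM and was not tested.

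**Figure D5:**
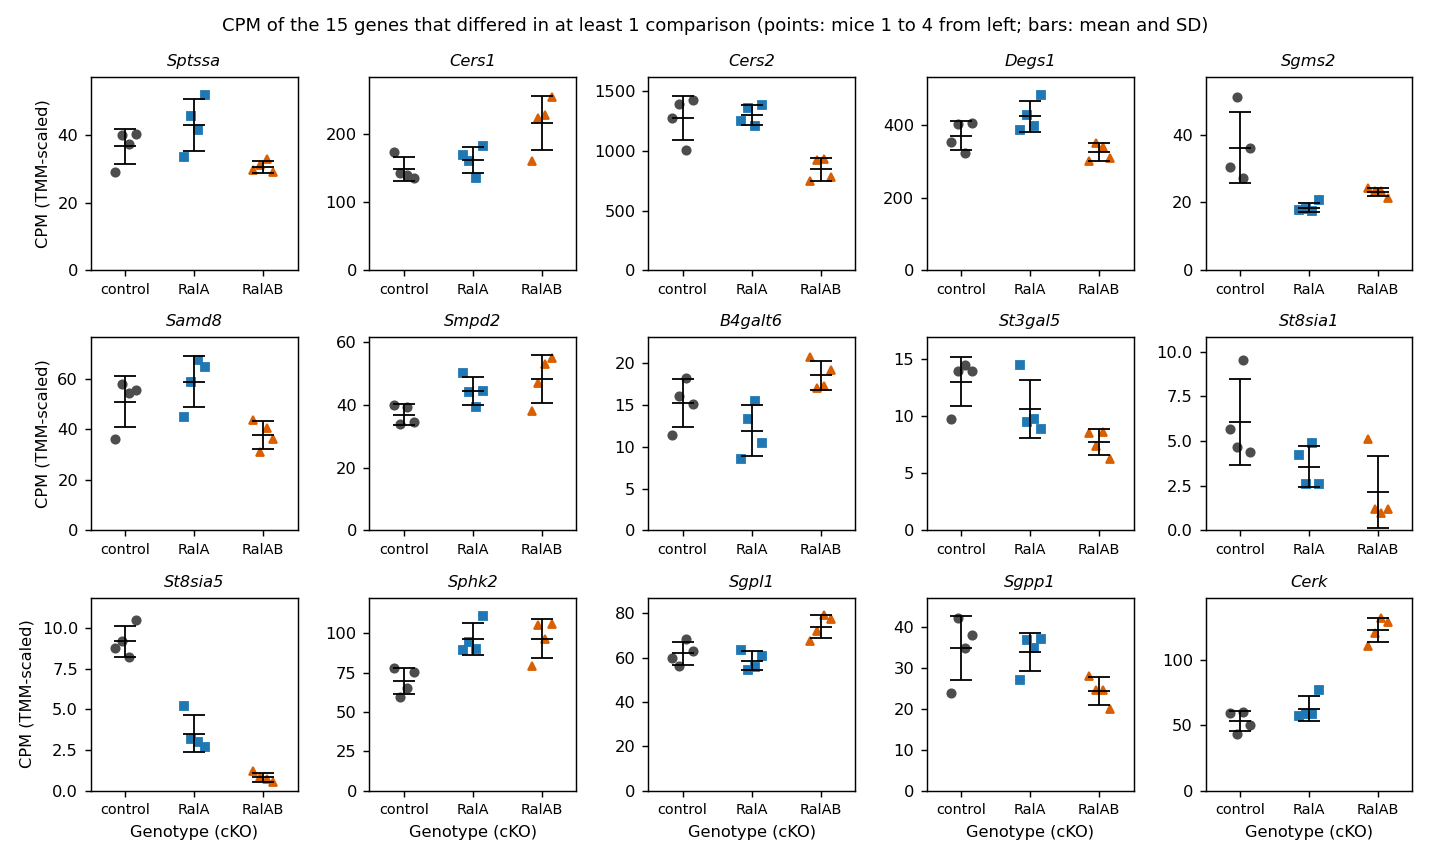
Each panel is 1 of the 15 genes that differed in at least 1 comparison, with CPM from 0 on the vertical axis, points for mice 1 to 4 from left and bars for the mean and SD. St8sia5 and Cerk show 3 and 2 separate levels, Cers2 is lower in RalAB cKO alone, and the points of St8sia1 in RalAB cKO include 1 mouse at 5.14 CPM far above the other 3.

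The rest of the pathway was read from 4 further lists. Among enzymes that break sphingolipids down and proteins that aid them, of which 20 of 21 were tested, Neu1 (0.56 ± 0.13, adjusted p = 0.0267) and Hexa (0.64 ± 0.14, adjusted p = 0.0276) were higher in RalA cKO. Neu1 is the lysosomal sialidase and Hexa a subunit of the hexosaminidase that degrades GM2. In the double mutant against control 5 were higher and 2 lower (35.0% of the list, beside 18.4% of all genes). Those higher included Hexa by 1.36 ± 0.15 (2.57-fold, from 70 to 180.1 CPM on average, adjusted p = 2.30e-05), Neu1 by 0.64 ± 0.12 (adjusted p = 0.00231) and Cln8, an endoplasmic reticulum protein that helps export lysosomal enzymes, by 0.53 ± 0.13 (adjusted p = 0.00836). The 5 higher genes of the list include 1 that is also among the microglia markers. The sialidase gene Neu4, lower there (-0.49 ± 0.16, adjusted p = 0.0490), is also among the precursor markers. The microglia sums were higher in the same libraries, and the part of microglia and precursors in these values was not tested. Between the mutants Hexa (0.72 ± 0.14, adjusted p = 0.00272) was higher and Asah2, the neutral ceramidase, lower (-1.08 ± 0.31, adjusted p = 0.0338).

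Among 12 tested genes listed for neighbouring synthesis steps, Cyb5b, a cytochrome b5, was lower in both mutants, by -0.43 ± 0.09 in RalA cKO mice (adjusted p = 0.0239) and -0.45 ± 0.09 in RalAB cKO mice (adjusted p = 0.00314). In RalAB cKO against control 3 were higher and 2 lower (41.7% of the list, beside 18.4% of all genes): St6galnac4 (0.72 ± 0.20, adjusted p = 0.0175) and St3gal3 (0.44 ± 0.12, adjusted p = 0.0210) rose and St6galnac3 fell (-0.76 ± 0.15, adjusted p = 0.00279), all of them sialyltransferases that also act on glycoproteins or other chains. Between the mutants St6galnac3 (-0.75 ± 0.15, adjusted p = 0.00317) was lower and St6galnac4 (0.87 ± 0.20, adjusted p = 0.00713) higher. Of 9 tested sphingolipid transport genes 0 passed the edgeR test in any comparison, with log2 differences of -0.32 to 0.38. An unadjusted p under 0.05 was found for 1 of them in RalA cKO and for 2 in RalAB cKO against control, where DESeq2 called 0 and limma-voom 1 and 2. Of 3 tested sphingosine-1-phosphate receptors S1pr2 was lower in RalAB cKO than in control (-0.77 ± 0.25, adjusted p = 0.0432). These lists were read by their counts and values and were not tested as sets.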

How the data were processed

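RNA was measured in 12 libraries, 4 independent mice in each of 3 genotypes, from tdTomato-positive spinal cord cells at postnatal day 10. The authors deposited, per the file headers, estimated counts, effective lengths (another unit, in bases) and TPM for each transcript. Trimmomatic 0.36, kallisto 0.44 and GRCm38.p6 are named in the submitters' processing notes, without their roles. Whether counting used strand is not stated there.

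Estimated counts were summed per gene with GENCODE vM21, which matched 121104 of 121843 transcripts. The other 739, with 0.2185% to 0.2772% of counts per library, were left out. Sums were rounded and tested with edgeR 4.0.16 (R 4.3.3): filterByExpr with a minimum count of 10 and a minimum total of 15, which kept 13456 of 35675 genes, TMM scaling, the robust quasi-likelihood F test with 1 mean per group over all 12 libraries, and Benjamini-Hochberg adjustment at 0.05. Standard errors are the log2 difference over the root of F, and intervals are 95%. TPM was used for levels compared between genes and for sums, shares, ratios and single transcripts. The latter were also set side by side between genotypes, without a test. TPM carries no TMM factors, so its direction can differ from that of the tested values. The galactolipid sum averaged 2785 TPM in RalA cKO against 2908 in control, though the log2 differences of its 3 genes were above 0. Libraries of a group differed by a chi-square per degree of freedom of 9.09 to 39.5, so none was counted as a duplicate. The fits were tested on simulated counts with planted changes.

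The gene set, the pathway lists and the marker lists were chosen with earlier results of these data known. Every gene called in at least 1 comparison is given in each library, with the 2 most abundant uncalled genes of each branch. Up to 4 called genes with the smallest p were named for each pathway list, apart from results that are not reported here, and other uncalled genes are given by level or because they came near the threshold, after their values were seen. Alternatives used DESeq2 1.42.0 size factors or its test, limma 3.58.1 with voom quality weights, library totals alone, no count filter, the 2 groups compared alone, a block on mouse number, offsets for transcript length, Y-linked expression as a covariate, and libraries left out. Promoters came from RefSeq.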

Additional observations from a re-analysis of the deposited data

Results flagged for a closer look

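In 12 of 102 tested gene and group combinations, 1 mouse lay apart from the other 3, by a gap above Dixon's 95% critical value, which chance gives in about 1 of 20 such groups. In control, Sptlc1 was at 86.8 CPM in mouse 3 (others 106 to 108), Ormdl3 at 30.9 in mouse 2 (38.6 to 40.1), Kdsr at 26.3 in mouse 2 (29.6 to 29.9), Samd8 at 36.0 in mouse 1 (54.3 to 57.8) and St3gal5 at 9.76 in mouse 1 (13.9 to 14.4). In RalA cKO, Sptlc2 was at 82.2 CPM in mouse 1 (95.6 to 96.6), Ugt8a at 1872 in mouse 1 (2509 to 2650.1), Ormdl2 at 41.3 in mouse 4 (32.4 to 33.4), Sgms2 at 20.6 in mouse 4 (17.6 to 18) and Cerk at 77.0 in mouse 4 (57.6 to 58.6). In RalAB cKO, Gal3st1 was at 535 CPM in mouse 1 (658 to 685) and St8sia1 at 5.14 in mouse 1 (0.960 to 1.23).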

How the results depend on the processing

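No value of a member that passed the test changed direction under the 10 alternatives, while 17 of 102 pairs of a gene and a comparison, all without a call, changed sign under at least 1, such as Ugt8a in RalA cKO (0.08, but -0.04 with library totals alone) and Cers6 in RalAB cKO against control (0.24, but -0.53 with length offsets). The 1 gene higher in RalA cKO than in control, Sphk2, became 0 genes with median-of-ratios scaling, with the groups compared alone, with length offsets and with the Y-linked covariate, and the 2 lower genes became 1 with that covariate. In RalAB cKO against control the 4 higher genes became 2 with length offsets. In RalAB cKO against RalA cKO the 3 higher genes became 5 with DESeq2 and 6 with limma-voom, and the 5 lower genes became 10 with limma-voom and 3 with length offsets. The cause was not tested. Leaving out 1 library at a time gave 0 to 1 higher and 1 to 3 lower genes in RalA cKO, 3 to 5 and 3 to 8 in RalAB cKO, and 1 to 4 and 2 to 7 between the mutants. With mouse number as a block (replicate block) the higher gene in RalA cKO became 0. The numbers did not pair the mice: same-numbered libraries correlated at -0.198 to 0.175, 3 of 12 pairs over 0.1, and 5 of 24 correlated best with their own number. Without its most abundant gene, the summed TPM (log2) went from -0.47 to -0.16 and from -0.34 to -0.08 for ceramide in RalAB cKO set against each other group, from -0.31 to -0.61, -0.26 to -0.71 and 0.05 to -0.10 for sphingomyelin in RalA cKO, in RalAB cKO and between the mutants, from -0.43 to -0.74 and -0.26 to -0.58 for ganglioside genes in RalA cKO and RalAB cKO against control, and from 0.34 to 0.55 for phosphate genes between the mutants. Over all genes the calls in RalA cKO numbered 374, but 1789 with limma-voom, 1054 with DESeq2, 232 with the block, 81 with the Y-linked covariate, 1693 without control 1 and RalAB cKO 1, and 85 to 947 with 1 library left out (without RalA cKO 4 and without control 1). In RalAB cKO against control they numbered 2478, but 4071 with limma-voom, 3962 without control 1 and RalAB cKO 1, and as few as 1605 without RalAB cKO 4, and between the mutants 1551, but 2541 with limma-voom. Library totals alone shifted the median of all genes by -0.116 in RalA cKO and -0.09 in RalAB cKO, where 41.3% and 41.4% of calls were higher, against 230 of 374 and 1264 of 2478 with TMM. St8sia5 in RalAB cKO rests on 7 to 16.0 counts per library, which limits its precision.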
